A study of Mus musculus with 58 samples.

Results

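The tibialis anterior, a fast muscle of the lower leg, of tumour-bearing mice was divided by how strongly it expressed the genes of 2 ubiquitin ligases of muscle atrophy, Fbxo32 (atrogin-1) and Trim63 (MuRF1). The score of an array was the mean of log2 Fbxo32 and log2 Trim63, each minus its mean over the 3 sham arrays of the same cohort. Of the 58 arrays of the series, 17 came from the tibialis anterior of tumour-bearing mice. The 8 with the highest score are called strong and the 8 with the lowest weak, and the 1 in the middle was left out. The groups were thus chosen by measured values, and Fbxo32 and Trim63 are evidence of nothing here and stand in no count.

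All animals were adult female NSG mice, an immunodeficient strain that lacks B, T and natural killer cells of its own and accepts human tissue. Tumour-bearing mice carried pieces of a pancreatic ductal adenocarcinoma, taken from a patient with cachexia, on the pancreas (patient-derived xenograft, PDX), and sham mice had the operation without a tumour. Tumours of 4 patients gave 4 cohorts, so that each cohort is 1 tumour. A cohort was killed when its tumour-bearing mice were severely cachectic or tumours had passed a size limit. Cohorts 1, 2, 3 and 4 had 3, 5, 5 and 4 PDX arrays and 3 sham arrays each. Neither muscle mass nor body weight of single mice was used here.

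Muscle loses mass when protein breakdown exceeds synthesis. FoxO transcription factors, held out of the nucleus by insulin and IGF signalling, switch on Fbxo32, Trim63 and genes of autophagy. Glucocorticoids act on many of the same genes through their receptor and on others such as Fkbp5, and cytokines of the interleukin 6 family act through STAT3. Fbxo32 and Trim63 are the customary messenger readout of this programme, and both ligases mark proteins for the proteasome.

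The 17 scores ran without a wide break from 1.70 to -0.02 on the log2 scale. Strong arrays lay between 0.80 and 1.70 with a median of 1.29, and weak arrays between -0.02 and 0.69 with a median of 0.39. The array just inside the strong group (cohort 4 PDX 3) had 0.80, the middle array (cohort 3 PDX 2) 0.78 and the array just inside the weak group (cohort 4 PDX 2) 0.69. The 12 sham arrays had scores between -0.44 and 0.37, so that 4 of the weak arrays lay within the range of sham. Fbxo32 ran from 0.54 to 1.53 (median 1.01) in strong and from -0.11 to 0.97 (median 0.42) in weak arrays, and the groups overlapped. Trim63 ran from 0.93 to 2.57 (median 1.361) in strong and from 0.08 to 0.48 (median 0.34) in weak arrays, with no overlap. The strong array with the highest score, cohort 3 PDX 1, had the highest Trim63 but a Fbxo32 value of 0.83.

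**Figure D1:**
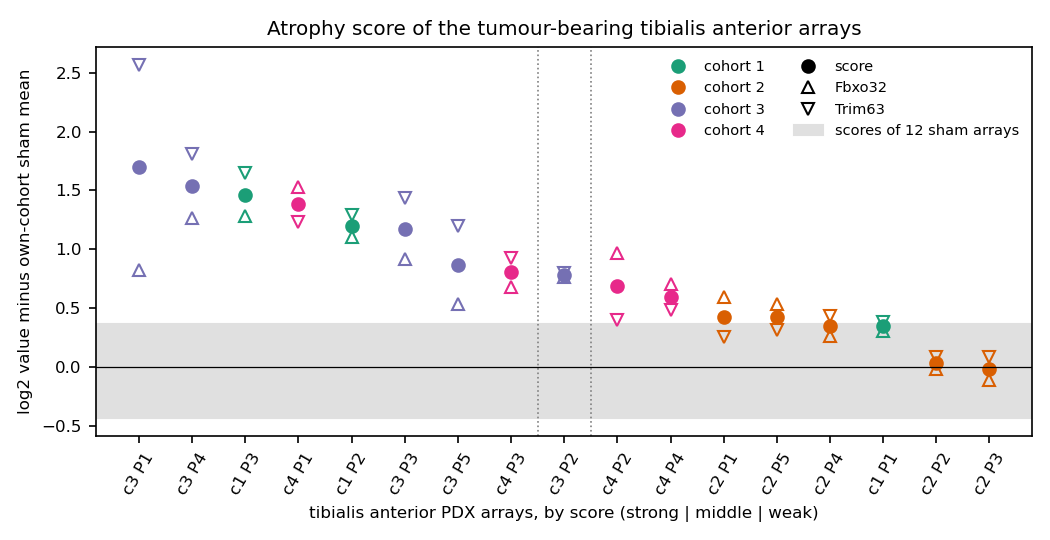
Each column is 1 tibialis anterior PDX array (c, cohort; P, PDX number), in order of score. The vertical axis gives log2 values minus the own-cohort sham mean, for the score (filled) and for Fbxo32 and Trim63 (open). Dotted lines enclose the middle array, and the grey band spans the scores of the 12 sham arrays, -0.44 to 0.37.

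Score and cohort went together. The strong group held 2, 0, 4 and 2 arrays of cohorts 1 to 4, and the weak group 1, 5, 0 and 2. All 5 arrays of cohort 2 were weak and none of cohort 3 was. Only cohorts 1 and 4 held both groups, with 3 and 4 arrays. For most arrays the group can thus not be told apart from the tumour the mouse carried. The score itself also varied inside cohort 2 (-0.02 to 0.42) and cohort 3 (0.78 to 1.70). Differences between strong and weak arrays are therefore given over all 16 arrays and, as the within-cohort difference, from a fit with cohort as a block, which rests on the 7 arrays of cohorts 1 and 4. A p-value of this comparison says how closely a gene goes with the 2 score genes across arrays. It is no test of a treatment, and it takes the arrays as independent although those of a cohort share its sham mean.

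The skeletal muscle markers Acta1, Ckm, Myh4, Mylpf and Tnnt3 had a mean log2 level between 11.5 and 11.8 in sham, weak and strong arrays. Means of tendon markers lay between 4.87 and 6.86 in sham, 4.01 and 5.48 in weak and 3.57 and 4.15 in strong arrays. Means of fibro-adipogenic markers lay between 7.16 and 7.82, 6.60 and 7.26 and 5.26 and 6.97. Those of 6 measured hepatocyte markers lay between 3.90 and 6.29 in sham, 4.22 and 7.001 in weak and 3.85 and 6.59 in strong arrays, where the median of all probe sets was 3.78. Fewer cells of a type and less RNA per cell cannot be told apart in whole muscle.

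Promoters are shown for Trim63 and for the 2 genes that passed the test between strong and weak arrays (Lmod2 and Col3a1). Klf9 is shown as 1 of 22 genes whose strong and weak values did not overlap. Each covers 250 bases before and 50 after the RefSeq start of the gene (GRCm38.p6, + strand for all 4). Searched on both strands were the FoxO element GTAAACA, the spaced element of the glucocorticoid receptor ACANNNTGT and the MEF2 element CTAAAAATA, and matches are in capitals.
Trim63, chr4:134314870-134315169: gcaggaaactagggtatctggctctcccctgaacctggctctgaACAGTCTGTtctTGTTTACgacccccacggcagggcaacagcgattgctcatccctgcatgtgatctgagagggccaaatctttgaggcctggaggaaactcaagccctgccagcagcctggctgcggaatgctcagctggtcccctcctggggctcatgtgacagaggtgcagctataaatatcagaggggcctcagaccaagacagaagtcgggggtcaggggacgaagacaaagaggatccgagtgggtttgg
Klf9, chr19:23140976-23141275: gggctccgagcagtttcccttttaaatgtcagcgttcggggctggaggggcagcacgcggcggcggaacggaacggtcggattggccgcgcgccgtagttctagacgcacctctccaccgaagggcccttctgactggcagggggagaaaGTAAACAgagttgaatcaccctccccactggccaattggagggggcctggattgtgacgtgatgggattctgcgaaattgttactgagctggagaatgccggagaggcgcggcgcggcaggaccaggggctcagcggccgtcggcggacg
Lmod2, chr6:24597521-24597820: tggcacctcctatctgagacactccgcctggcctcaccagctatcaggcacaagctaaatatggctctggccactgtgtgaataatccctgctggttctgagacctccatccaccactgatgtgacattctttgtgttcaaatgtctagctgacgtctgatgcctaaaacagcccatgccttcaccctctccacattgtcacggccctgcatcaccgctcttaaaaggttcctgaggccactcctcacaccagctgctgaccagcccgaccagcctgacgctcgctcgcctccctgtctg
Col3a1, chr1:45311288-45311587: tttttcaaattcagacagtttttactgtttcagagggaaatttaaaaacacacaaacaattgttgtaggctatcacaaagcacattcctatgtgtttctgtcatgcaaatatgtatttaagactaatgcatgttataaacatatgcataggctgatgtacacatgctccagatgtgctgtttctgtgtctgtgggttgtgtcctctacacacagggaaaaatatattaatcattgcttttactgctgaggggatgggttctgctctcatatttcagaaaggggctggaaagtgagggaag
Trim63 held 1 receptor match and 1 FoxO match (on the opposite strand, as TGTTTAC), which do not overlap, and Klf9 held 1 FoxO match. The windows of Lmod2, Col3a1 and Depp1 held none of the 3. Depp1, not printed here, did not overlap either and had a larger difference than Klf9 (1.83 against 0.47). Of 32851 promoters of this length, 3.65% held the FoxO element, 6.85% the receptor element and 0.517% the MEF2 element. Among 34 promoters of 28 FoxO-driven atrophy genes, 2 (5.88%) held the FoxO element and 2 (5.88%) the receptor element. Among 36 promoters of 24 glucocorticoid-responsive genes, 4 (11.1%) held the receptor element and 2 (5.56%) the FoxO element. A match is a run of letters and not a bound site.

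Of 23183 genes tested with limma, 1 was higher and 1 lower in strong than in weak arrays at an adjusted p under 0.05 (0.00431% each, 0.00863% together). At an unadjusted p under 0.05, 3286 genes (14.2%) differed, 1669 higher (7.2%) and 1617 lower (6.97%). All 8 strong arrays lay above all 8 weak arrays for 13 genes (0.0561%) and below them for 9 (0.0388%), 22 in all (0.0949%). The median difference over all genes was -0.0013, and 49.7% of the differences were above 0. Within cohorts 0 genes passed the adjusted threshold in limma, with 375 at an unadjusted p under 0.05. The count of 2 turned to 123 when the weakest of the strong arrays (cohort 4 PDX 3) was left out, to 5 without the weak array cohort 4 PDX 2 and to 4 without the weak array cohort 1 PDX 1. It was 0 or 1 without any other single array.

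Lmod2 encodes leiomodin 2, an actin nucleator of striated muscle that sets the length of thin filaments. It was above the sham mean in 8 of 8 strong arrays, at 0.43 to 0.90 with a median of 0.61 (log2, minus the sham mean). In weak arrays it lay between -0.57 and 0.32 with a median of -0.23, above the sham mean in 2 of 8. No strong array overlapped a weak one, and sham arrays spanned -0.41 to 0.36. Lmod2 was higher by 0.88 (1.84-fold, SE 0.13, 8 against 8 arrays, limma adjusted p = 0.0247). The highest weak values, 0.32 and 0.11, were the 2 weak arrays of cohort 4, whose strong arrays had 0.90 and 0.63. In cohort 1 the weak array had -0.26 and the strong arrays 0.56 and 0.44. The within-cohort difference was 0.64 (unadjusted p = 0.000543, adjusted p = 1.00), and the middle array had 0.18.

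Col3a1, a chain of type III collagen, lay below the sham mean in every strong and every weak array. Strong arrays had -2.83 to -1.65 with a median of -2.57, and weak arrays -1.90 to -0.21 with a median of -1.16. The groups overlapped through 1 strong array, cohort 4 PDX 3, at -1.65, and the other 7 lay below all weak arrays. Col3a1 was lower by a log2 difference of -1.37 (0.386-fold, SE 0.22, limma adjusted p = 0.0462). The within-cohort difference was -0.69 (unadjusted p = 0.0189, adjusted p = 1.00), with -0.98 in cohort 1 and -0.50 in cohort 4. The lower tendon and fibro-adipogenic marker means of the strong arrays moved with this difference, and their part in it was not tested.

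Both calls depended on single arrays. Lmod2 kept its call without any 1 of 6 arrays: cohort 3 PDX 5, cohort 4 PDX 2, PDX 3 or PDX 4, or cohort 1 PDX 1 or PDX 3. Without any 1 of the other 10 its adjusted p lay between 0.060 and 0.0915. Col3a1 kept its call without cohort 4 PDX 2, cohort 4 PDX 3 or cohort 1 PDX 1, and without any 1 of the other 13 its adjusted p lay between 0.0632 and 0.147. The differences themselves stayed between 0.83 and 0.95 for Lmod2 and between -1.49 and -1.25 for Col3a1.

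**Figure D2:**
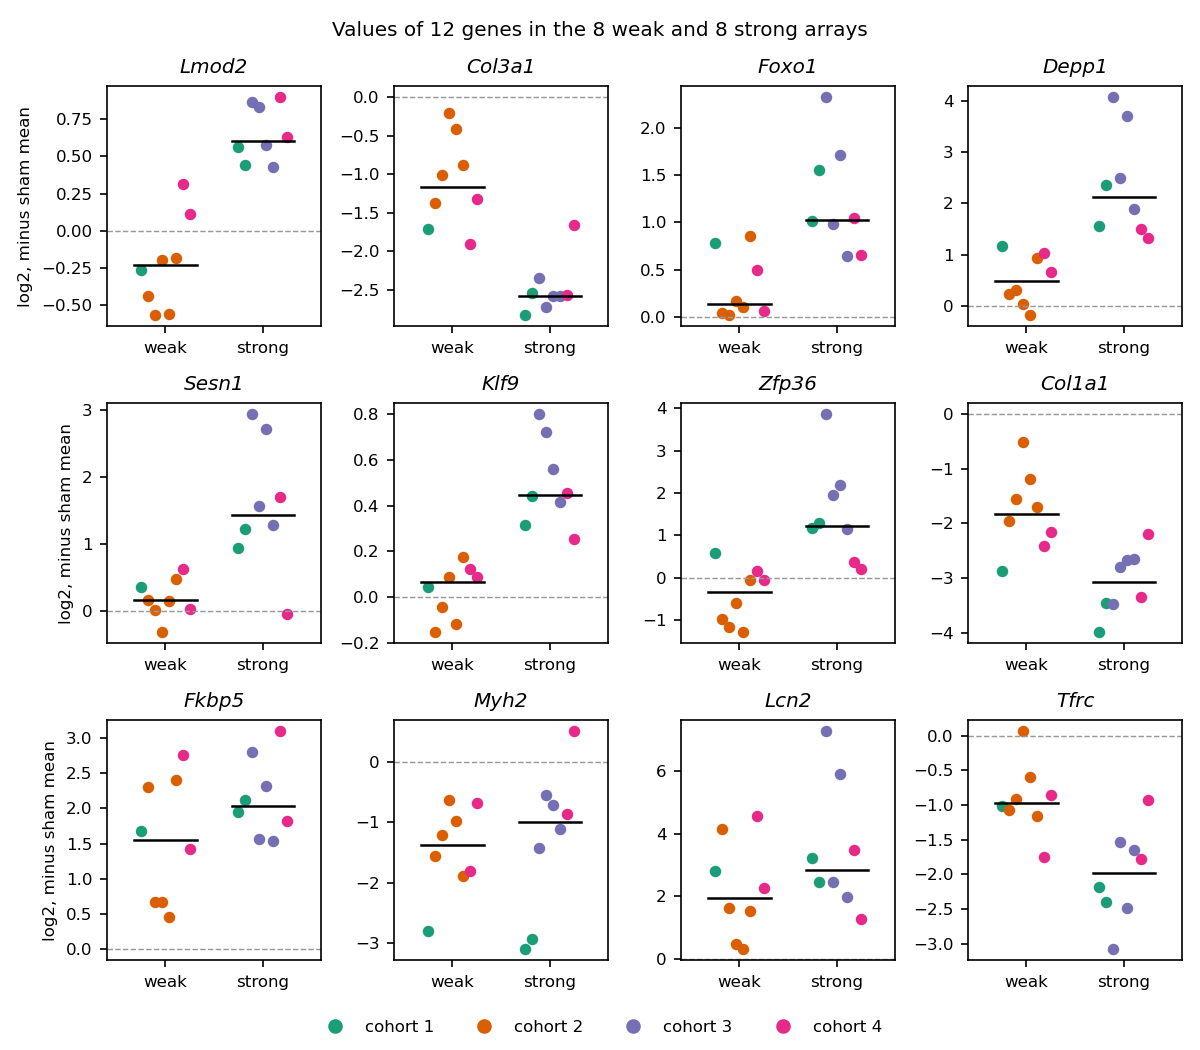
Values of 12 genes in the 8 weak and 8 strong arrays, as log2 minus the own-cohort sham mean (dashed line at 0), coloured by cohort, with a bar at each group's median. For Lmod2, Depp1 and Klf9 no strong array overlaps a weak one, while Fkbp5, Myh2 and Lcn2 overlap widely.

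FoxO-driven atrophy genes other than the 2 score genes had, as a group, higher values in strong arrays. Of 32 measured, 30 had a difference above 0, against 49.7% of all genes, and the list's median difference was 0.425. None passed the adjusted test, and 17 of the 32 reached an unadjusted p under 0.05 upwards, none downwards. Of all genes, 7.2% did so upwards and 6.97% downwards. Depp1, a FoxO target that acts on peroxisomes and autophagy, had the largest difference on the list. It lay at 1.32 to 4.07 (median 2.13) in strong and at -0.18 to 1.18 (median 0.50) in weak arrays, without overlap. Its difference was 1.83 (SE 0.35, limma adjusted p = 0.117), and within cohorts it was 0.65.

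Foxo1, itself a FoxO factor, had 0.64 to 2.32 (median 1.03) in strong and 0.02 to 0.86 (median 0.14) in weak arrays. Of the strong arrays, 6 lay above the highest weak array, and the difference was 0.92 (SE 0.21, adjusted p = 0.148), with 0.54 within cohorts. Foxo3 had a smaller difference, 0.41 (SE 0.14, adjusted p = 0.227; 0.32 within cohorts), and Foxo4 had 0.11 (SE 0.10, adjusted p = 0.643; 0.093 within cohorts). Sesn1, a sestrin that restrains mTORC1, ran from -0.04 to 2.94 (median 1.42) in strong and from -0.32 to 0.62 (median 0.16) in weak arrays. The single strong array at -0.04, cohort 4 PDX 3, lay inside the weak range and the other 7 above it. Its difference was 1.35 (SE 0.31, adjusted p = 0.148) and 0.59 within cohorts. Cdkn1a, the cell cycle inhibitor p21, had 0.16 to 2.81 in strong and -0.47 to 0.43 in weak arrays, a difference of 0.97 (adjusted p = 0.173) and of 0.51 within cohorts.

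The within-cohort median of the FoxO list was 0.215, with 0.282 in cohort 1 and 0.112 in cohort 4, below the value over all arrays. In the comparison of strong and weak arrays, each of Foxo1, Sesn1 and Depp1 passed in only 1 of 16 runs that left out a single array. It was the run without the weakest strong array, cohort 4 PDX 3, with limma adjusted p = 0.0440, 0.0182 and 0.0317. Other F-box genes linked to atrophy had smaller differences. Fbxo31 had 0.49 (adjusted p = 0.215), Fbxo30 (MUSA1) 0.22 (adjusted p = 0.358) and Fbxo21 (SMART) 0.14 (adjusted p = 0.554), and within cohorts 0.25, 0.23 and -0.14. Fbxo40, a muscle ligase for IRS1, had a difference of -0.37 (adjusted p = 0.333) and of -0.048 within cohorts. Of 31 other muscle ubiquitin ligases and deubiquitinases, 10 had a difference above 0 and 21 below, with a median of -0.075, and -0.022 within cohorts.

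Downstream of the ligases, the 30 proteasome subunit genes had a median difference of 0.013, with 18 above and 12 below 0, and 0.038 within cohorts. Autophagy and lysosome genes had 23 of 34 above 0 and a median of 0.128, and 0.052 within cohorts. Ctsl, the lysosomal protease cathepsin L, had 0.19 to 2.83 (median 1.13) in strong and 0.01 to 0.80 (median 0.43) in weak arrays. The groups overlapped at their ends, and the difference was 0.85 (SE 0.26, adjusted p = 0.202) over all arrays but 0.17 within cohorts. Atg14, a subunit of the kinase complex that starts autophagosomes, had a difference of 0.40 (adjusted p = 0.227) and of 0.18 within cohorts. Atg101, of the ULK1 complex, went the other way: all 8 strong arrays (up to -0.0385) lay below all 8 weak arrays (from -0.0365), a difference of -0.34 (adjusted p = 0.173) and of -0.11 within cohorts.

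Glucocorticoid-responsive genes had the highest median of all 41 lists, 0.595. Of 28 measured, 26 had a difference above 0, against 49.7% of all genes, and none passed the adjusted test. At an unadjusted p under 0.05, 19 were higher and none lower, against 7.2% and 6.97% of all genes. The list shares 6 genes with the FoxO list (Cdkn1a, Klf15, Mt1, Mt2, Pdk4 and Sesn1), so that they are not separate counts. Within cohorts the median was 0.219, with 0.317 in cohort 1 and 0.115 in cohort 4. Klf9, a Krüppel-like factor induced by the receptor, lay at 0.26 to 0.80 (median 0.45) in strong and at -0.16 to 0.17 (median 0.06) in weak arrays. The groups did not overlap, and the difference was 0.47 (SE 0.09, adjusted p = 0.117) and 0.28 within cohorts. Its relative Klf15, which raises the breakdown of branched-chain amino acids, had a difference of 0.69 (SE 0.17, adjusted p = 0.15) and of 0.22 within cohorts.

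The stress gene Ddit4 (REDD1), an inhibitor of mTORC1, had 1.67 to 4.70 (median 2.46) in strong and -0.73 to 2.13 (median 1.42) in weak arrays. Its difference was 1.71 (SE 0.45, adjusted p = 0.165) and 0.49 within cohorts. Cebpd, a transcription factor that answers to glucocorticoids and to STAT3, had a difference of 1.56 (SE 0.42, adjusted p = 0.167), and 0.22 within cohorts. Of the textbook reporter genes of the receptor, Fkbp5 differed less. It had 1.53 to 3.10 (median 2.03) in strong and 0.46 to 2.75 (median 1.55) in weak arrays. Only 2 strong arrays lay above the highest weak array, and the difference was 0.60 (SE 0.32, adjusted p = 0.4) and 0.36 within cohorts. Mt1 and Mt2, metallothioneins that bind zinc, had differences of 1.26 (adjusted p = 0.185) and 1.42 (adjusted p = 0.234), and within cohorts of 0.21 and 0.13.

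STAT3, interleukin 6 and acute-phase genes had a median difference of 0.193 over all arrays and of -0.061 within cohorts. Lcn2, the acute-phase protein lipocalin 2, spanned 1.26 to 7.30 (median 2.85) in strong and 0.30 to 4.58 (median 1.95) in weak arrays. It was above the sham mean in all 16 arrays, with wide overlap. The difference was 1.30 (SE 0.78, adjusted p = 0.459) over all arrays and -0.62 within cohorts, with 0.04 in cohort 1 and -1.05 in cohort 4. Il6ra, a receptor chain of interleukin 6, had a difference of 1.09 (SE 0.33, adjusted p = 0.186) and of 0.65 within cohorts. Its strong arrays lay at 0.74 to 3.90 and its weak ones at 0.49 to 1.68. NF-kB and cytokine genes had a median of 0.183, and of 0.024 within cohorts.

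Immediate-early genes, which respond to stimuli within minutes, had a median difference of 0.423 with 23 of 26 above 0, and none passed the adjusted test. At an unadjusted p under 0.05, 12 were higher and none lower, against 7.2% and 6.97% of all genes. Within cohorts the median was 0.137, with 0.016 in cohort 1 and 0.209 in cohort 4. Zfp36 (tristetraprolin), which speeds the decay of messenger RNAs, had 0.20 to 3.87 (median 1.22) in strong and -1.30 to 0.57 (median -0.33) in weak arrays. All 8 strong arrays were above the sham mean and 6 of 8 weak arrays below it. The difference was 1.95 (SE 0.41, adjusted p = 0.148) over all arrays and 0.40 within cohorts. Btg2, an antiproliferative gene of the same class, had a difference of 1.79 (SE 0.41, adjusted p = 0.148) and of 0.55 within cohorts. Clock genes had 16 of 18 above 0 and a median of 0.249, and of 0.091 within cohorts. Per1, which glucocorticoids also induce, had 0.30 to 1.95 in strong and 0.02 to 0.58 in weak arrays, a difference of 0.90 (adjusted p = 0.149). Cry2, a repressor of the clock, had a difference of 1.21 (adjusted p = 0.171), and within cohorts both genes had 0.31. The hour at which the mice were killed is not given in the sources used here.

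Genes of insulin and IGF signalling went in both directions, 9 above and 14 below 0 of 23, with a median of -0.052 and of -0.020 within cohorts. Irs1, the adaptor of the insulin receptor, lay at -2.42 to 0.06 (median -1.30) in strong and at -1.28 to 0.54 (median -0.48) in weak arrays. The difference was -0.97 (SE 0.28, adjusted p = 0.176) and -0.26 within cohorts, and 4 strong arrays lay below the lowest weak array. Pik3r1, the regulatory subunit of PI3 kinase, had 0.80 (SE 0.23, adjusted p = 0.178) over all arrays but -0.06 within cohorts. The growth factor Igf1 had -0.42 (SE 0.15, adjusted p = 0.23), and within cohorts -0.35. Eif4ebp1, a brake on translation and a FoxO target, had 0.88 (SE 0.29, adjusted p = 0.22) and 0.26 within cohorts. Of 31 genes of myostatin, activin and BMP signalling, 22 had a difference above 0, with a median of 0.094, and 0.060 within cohorts. Mstn, myostatin itself, had 0.09 (adjusted p = 0.848) and 0.24 within cohorts. The activin receptor gene Acvr1b had 0.98 (SE 0.25, adjusted p = 0.158), with 7 strong arrays above all weak arrays, but 0.33 within cohorts and 0.12 in cohort 4. Fstl1, a secreted follistatin-like protein, had -0.43 (adjusted p = 0.234) and -0.35 within cohorts.

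Matrix genes had lower values in strong arrays. Of 39 genes of fibrillar collagens and matrix, 32 had a difference below 0 and 1, Col3a1, passed; the median was -0.321. Col1a1, a chain of type I collagen, lay at -3.99 to -2.19 (median -3.07) in strong and at -2.87 to -0.51 (median -1.84) in weak arrays. Of the strong arrays, 4 lay below the lowest weak array, cohort 1 PDX 1, and the difference was -1.28 (SE 0.29, adjusted p = 0.148) and -0.63 within cohorts. Genes of fibro-adipogenic progenitors and fibroblasts had 17 of 19 below 0 and a median of -0.343, the lowest of the 41 lists. Dpt (dermatopontin), a matrix protein of these cells, had -2.98 to -0.55 in strong and -1.25 to -0.40 in weak arrays, a difference of -1.03 (adjusted p = 0.165) and of -0.19 within cohorts. Smoc2, another secreted matrix protein, had a difference of -0.48 (adjusted p = 0.186), and of -0.04 within cohorts.

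Within cohorts the medians of these lists were -0.073 for matrix and -0.096 for fibro-adipogenic genes. Tendon genes kept theirs, -0.222 over all arrays and -0.251 within cohorts, with 12 of 16 below 0. Fmod (fibromodulin), a tendon proteoglycan, had -2.88 to -1.13 (median -2.30) in strong and -1.77 to 0.21 (median -1.16) in weak arrays. Its difference was -1.04 (SE 0.25, adjusted p = 0.149) over all arrays and -0.95 within cohorts. The tendon transcription factor Mkx had -0.49 (adjusted p = 0.171) and -0.32 within cohorts, at a level below the median of all probe sets. How much tendon was taken with each muscle was not recorded in the sources used here.

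**Figure D3:**
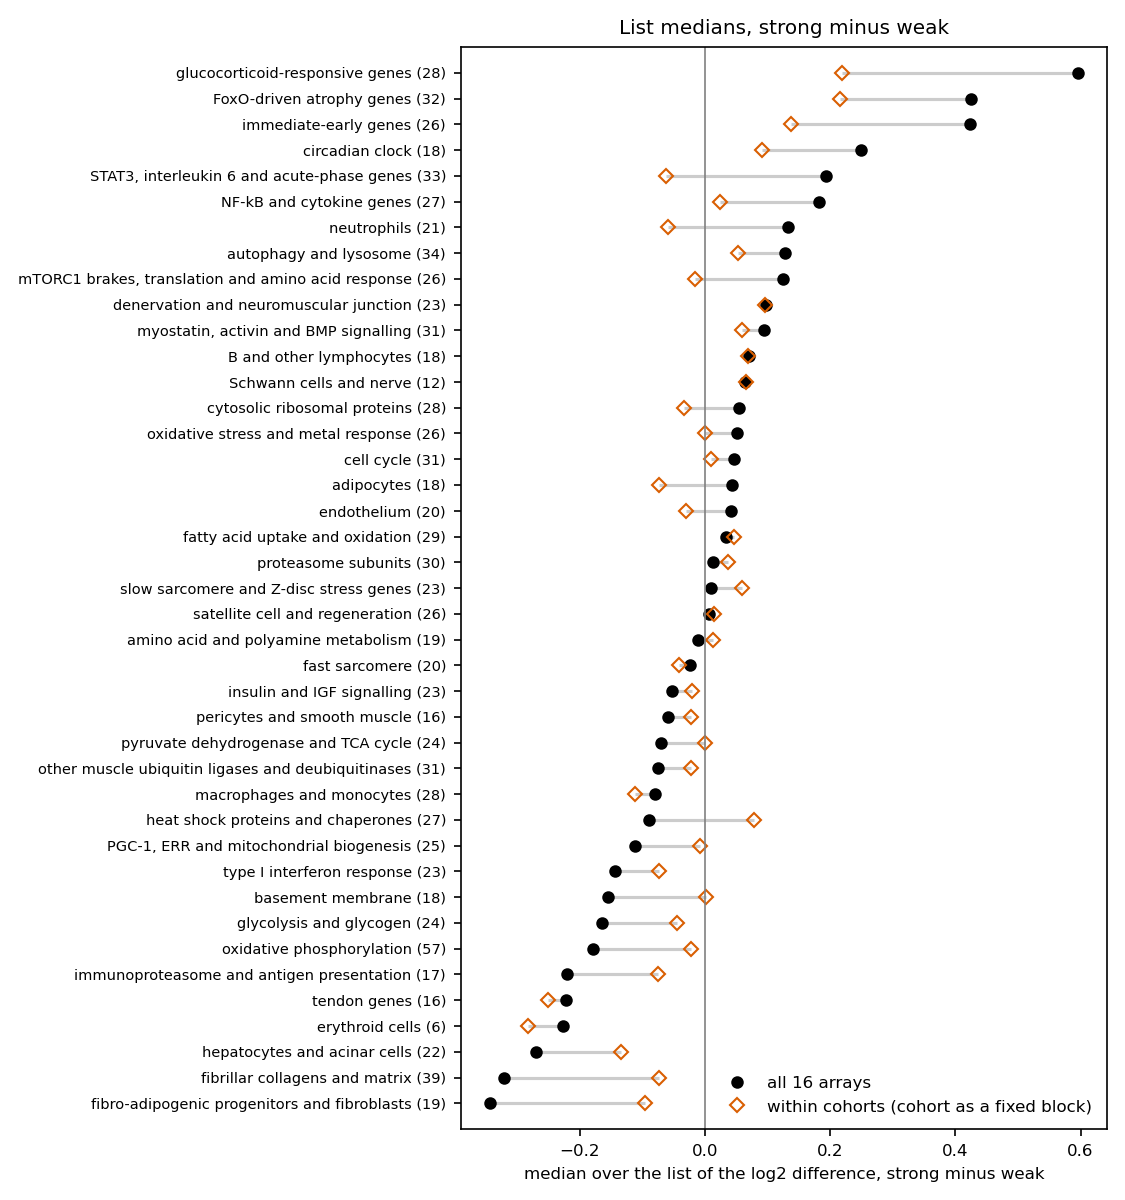
Median log2 difference, strong minus weak, over the measured genes of each of 41 lists (number in brackets), over all 16 arrays (filled) and within cohorts (open). Glucocorticoid-responsive genes stand highest at 0.595 and fibro-adipogenic genes lowest at -0.343. Of the 41 within-cohort medians, 30 lie nearer to 0, with the sign turned in 10 lists. The groups also lay closer in score in cohort 4 than over all arrays.

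Of 57 genes of oxidative phosphorylation, 56 had a lower mean in strong than in weak arrays, with a median difference of -0.179. The single exception was Cox7b (0.01), while 49.7% of all genes had a difference above 0. Within cohorts the median was -0.022, with -0.145 in cohort 1 and 0.070 in cohort 4. Cox7a1, the muscle form of a cytochrome oxidase subunit, had -0.39 (adjusted p = 0.22) over all arrays and 0.01 within cohorts. Ndufs8, a subunit of complex I, had -0.34 (adjusted p = 0.251), and its within-cohort value was near 0. Glycolysis and glycogen genes had 18 of 24 below 0 and a median of -0.164, and of -0.045 within cohorts. Ldha, lactate dehydrogenase A, lay at -0.79 to 0.02 in strong and at -0.19 to 0.17 in weak arrays, with 7 strong arrays below all weak arrays, and differed by -0.35 (adjusted p = 0.195), and by -0.15 within cohorts. Ppargc1a, the coactivator of mitochondrial biogenesis, had -0.37 (adjusted p = 0.657) over all arrays and 0.29 within cohorts. Its strong arrays spanned -1.86 to 2.03, the highest being cohort 4 PDX 3. Nrf1, a transcription factor of mitochondrial genes, had 0.49 (SE 0.11, adjusted p = 0.148) and 0.13 within cohorts.

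Contractile genes had medians near that of all genes. Fast sarcomere genes had a median difference of -0.023 and slow sarcomere genes of 0.009, and within cohorts of -0.041 and 0.060. Myh4, the fastest myosin heavy chain, had a difference of 0.01 (SE 0.07, adjusted p = 0.981) and of -0.091 within cohorts, at mean levels near the top of the arrays' range. Myh2, which encodes the IIA myosin of oxidative fast fibres, spanned -3.10 to 0.51 in strong and -2.80 to -0.63 in weak arrays, a difference of 0.17 (SE 0.43, adjusted p = 0.883) and of 0.55 within cohorts. The lowest values of both groups were the 3 arrays of cohort 1. Myh1, of the intermediate fast type, had 7 of 8 strong but 1 of 8 weak arrays above the sham mean, with a difference of 0.21 (SE 0.08, adjusted p = 0.236) and of 0.079 within cohorts. The calcium buffer of fast fibres, Pvalb (parvalbumin), had -0.38 (SE 0.12, adjusted p = 0.197) and -0.26 within cohorts, with strong arrays at -0.96 to -0.10 and weak arrays at -0.25 to 0.15.

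Of 23 genes of denervation and the neuromuscular junction, 16 had a difference above 0 and 7 below, with a median of 0.098, and 0.096 within cohorts. Embryonic myosin, Myh3, had 0.55 (adjusted p = 0.173) and 0.45 within cohorts, at levels below the median of all probe sets. Ostn encodes musclin, a peptide secreted by muscle. It lay at -3.16 to -1.88 (median -2.78) in strong and at -2.48 to 0.73 (median -0.72) in weak arrays, a difference of -1.79 (SE 0.37, adjusted p = 0.148), and within cohorts of -0.95. Ky, a protease of the Z-disc that is needed for muscle growth, had -1.01 (SE 0.37, adjusted p = 0.246) and -0.58 within cohorts, with a single strong array, cohort 3 PDX 1, at -3.92. Sln (sarcolipin), an inhibitor of the calcium pump, had 0.60 (adjusted p = 0.554) and -0.13 within cohorts. Tfrc, the transferrin receptor that takes up iron, had -1.09 (SE 0.26, adjusted p = 0.149) and -0.54 within cohorts, at -3.08 to -0.93 in strong and -1.75 to 0.07 in weak arrays. The small heat shock gene Hspb2 had -0.55 (adjusted p = 0.196) and -0.13 within cohorts.

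Genes of other cell types had medians on both sides of 0. Hepatocyte and acinar genes had -0.270 over all arrays and -0.134 within cohorts, and 6 erythroid genes had -0.226 and -0.283. Macrophage and monocyte genes had a median of -0.080, and -0.112 within cohorts, and of 28 measured 11 had a difference above 0 and 17 below. C1qa and C1qc, chains of complement C1q made by macrophages, had -0.50 (SE 0.12, adjusted p = 0.149) and -0.67 (SE 0.18, adjusted p = 0.168), and within cohorts -0.30 and -0.41. Neutrophil genes had 0.133 over all arrays and -0.059 within cohorts. Endothelial genes had 0.042 and -0.030 within cohorts, with 11 of 20 above 0 and 9 below. At an unadjusted p under 0.05, 1 endothelial gene was higher and 4 were lower, against 7.2% and 6.97% of all genes. Esam, an adhesion molecule of endothelium, was higher by 0.39 (adjusted p = 0.236), and by 0.047 within cohorts. Among the 4 lower was Aplnr, the apelin receptor of endothelium, with -0.38 (adjusted p = 0.197), and -0.34 within cohorts. Ighm, the mu heavy chain of immunoglobulin, had -4.64 to -3.02 in strong and -4.13 to 0.66 in weak arrays, a difference of -1.74 (SE 0.51, adjusted p = 0.185) over all arrays and -0.23 within cohorts. Alb, albumin, which muscle does not make, had -2.63 to 4.22 in strong and -0.30 to 4.07 in weak arrays, a difference of -2.22 (SE 0.79, adjusted p = 0.237) and of -1.22 within cohorts. Before subtraction its mean log2 level was 5.40 in sham, 5.33 in strong and 7.02 in weak arrays. The sham arrays subtracted in cohort 3, which gave 4 strong arrays, had 9.30, 6.30 and 5.33. Hepatocyte marker means of the weak arrays were higher at the median (4.71 against 4.20). Without the 2 PDX arrays whose hepatocyte mean lay above every sham array, Lmod2 had an adjusted p of 0.0603 and Col3a1 of 0.129.

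The 22 genes whose strong and weak arrays did not overlap had gaps between the groups of 0.0013 to 0.145. They were picked for not overlapping, so that their names were chosen after their values were seen and their sign within cohorts 1 and 4 is fixed by the choice. Among the 13 above, Zbtb10, a zinc finger repressor, had 0.38 to 1.201 in strong and -0.45 to 0.28 in weak arrays, a difference of 0.68 (SE 0.14, adjusted p = 0.148). Its within-cohort difference was 0.67, while those of the next 5 genes were smaller than over all arrays. Clk4, a kinase of splicing factors, had 0.46 (SE 0.09) and 0.30 within cohorts, and Mtmr12, a myotubularin relative without enzyme activity, had 0.40 (SE 0.09) and 0.23. Sat1, the enzyme that breaks down polyamines, had 0.67 (SE 0.20) and 0.24 within cohorts, with cohort 3 PDX 1 at 2.14 and the other strong arrays at up to 0.67. Mef2d, a muscle transcription factor, had 0.28 (SE 0.10) and 0.13 within cohorts, and Caml had 0.37 (SE 0.11) and 0.056.

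Among the 9 below, Tspan18, a tetraspanin, had -0.49 (SE 0.12) and within cohorts -0.27, and lay below the sham mean in all 8 strong and 7 of 8 weak arrays. Enpp4, a membrane hydrolase of nucleotides, had -0.51 (SE 0.15) and within cohorts -0.24. Bves, a popeye-domain protein of the muscle membrane that binds cAMP, had -0.43 (SE 0.12) and within cohorts -0.11. Mrpl51, a mitochondrial ribosomal protein, had -0.47 (SE 0.14) and within cohorts -0.12. Adjusted p-values of the genes named here as not overlapping, other than Lmod2, lay between 0.117 and 0.239, so that none of them passed.

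Set against sham in a fit of all 29 arrays with a term for each cohort, the weak arrays differed in 129 genes upwards (0.556%) and 205 downwards (0.884%) and the strong arrays in 1384 upwards (5.97%) and 1443 downwards (6.22%). Both comparisons use the same 12 sham arrays, and groups were selected on the score, so that values are set side by side only. As groups fall unevenly over cohorts, values of this fit differ from group means minus own-cohort sham. Lcn2 had 2.62 in weak and 3.18 in strong arrays in the fit, against means of 2.22 and 3.52. Zfp36 had -0.10 and 1.26, against -0.43 and 1.52. Myh2 lay further apart in the fit, at -1.57 and -1.27 against -1.44 and -1.27. Of the FoxO-driven genes, 3 of 32 rose in weak and 20 of 32 in strong arrays, where 1 fell; their medians were 0.230 and 0.546. Of the glucocorticoid-responsive genes, 5 of 28 rose in weak and 24 of 28 in strong arrays, with medians of 0.423 and 0.891. Among acute-phase genes 5 of 33 rose in weak and 15 in strong arrays, and their medians were 0.490 and 0.415. The weak count changed with the cohorts in the fit: it was 26 without cohort 1, 107 without cohort 2, 612 without cohort 3 and 2 without cohort 4. Cohort 3 held no weak array, so that leaving it out removed only sham, strong and middle arrays. The strong count was 1176, 2449, 1201 and 2325 without cohorts 1 to 4.

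Acute-phase and stress-hormone genes were among those that rose in the weak arrays too. Fkbp5 rose by 1.61 (SE 0.30, adjusted p = 0.00599) in weak and by 2.11 (SE 0.29, adjusted p = 1.8e-05) in strong arrays. Lcn2 rose by 2.62 (adjusted p = 0.0319) and 3.18 (adjusted p = 0.000812), Mt2 by 2.01 (adjusted p = 0.0161) and 2.94, and Mt1 by 1.29 (adjusted p = 0.0306) and 2.149. Il6ra rose by 1.197 (adjusted p = 0.0209) and 2.13 and Eif4ebp1 by 1.04 (adjusted p = 0.0245) and 1.68. Foxo1 had 0.40 (adjusted p = 0.313) in weak arrays against 1.18 (adjusted p = 2.48e-05). Depp1 had 0.77 (adjusted p = 0.251) against 2.16 (adjusted p = 1.52e-05) and Sesn1 0.33 (adjusted p = 0.646) against 1.40 (adjusted p = 0.000132). Klf9 had 0.06 (adjusted p = 0.863) against 0.46 (adjusted p = 0.000246), and Zfp36 -0.10 (adjusted p = 0.955) against 1.26 (adjusted p = 0.00895). Without cohort 1 or without cohort 4 the weak arrays' calls of Fkbp5, Lcn2, Mt1, Mt2, Il6ra and Eif4ebp1 were lost, with adjusted p between 0.0925 and 0.519. Single weak arrays were not alike in Mt1 and Fkbp5. Minus the sham mean, cohort 2 PDX 2, PDX 3 and PDX 4 had 0.003, 0.15 and -0.23 for Mt1 and 0.67, 0.67 and 0.46 for Fkbp5. The other weak arrays had 1.22 to 2.01 for Mt1 and 1.42 to 2.75 for Fkbp5.

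Matrix genes fell in both. Of 39 genes, 20 fell in weak and 29 in strong arrays and none rose, with medians of -0.710 and -0.885. Of all genes, 0.884% fell in weak and 6.22% in strong arrays. Col1a1 fell in weak and strong arrays, with log2 differences of -1.97 (SE 0.22, adjusted p = 3.56e-05) and -2.99 (SE 0.21, adjusted p = 1.02e-09). Col3a1 fell likewise, with -1.26 (adjusted p = 0.000729) and -2.38 (adjusted p = 1.5e-09). Of 16 tendon genes, 7 fell in weak and 11 in strong arrays, and of 57 genes of oxidative phosphorylation 2 fell in weak and 31 in strong arrays. Ighm fell, with -2.44 (adjusted p = 0.00221) in weak and -3.59 (adjusted p = 9.72e-07) in strong arrays. Myh2 fell by 1.57 (SE 0.31, adjusted p = 0.00779) in weak and by 1.27 (SE 0.30, adjusted p = 0.00444) in strong arrays, and without cohort 1 the strong value was -0.61 (adjusted p = 0.194). Ostn, at -1.09 (adjusted p = 0.112) in weak arrays, fell by 2.55 (adjusted p = 6.83e-06) in strong ones. Lmod2 had -0.17 (adjusted p = 0.608) in weak arrays and rose by 0.61 (adjusted p = 0.000312) in strong ones.

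Some lists had like medians in both groups against sham. Proteasome subunit genes had medians of 0.185 in weak and 0.180 in strong arrays. Of these 30 genes, 0 and 10 passed upwards, against 0.556% and 5.97% of all genes, and none downwards. Tendon genes had medians of -0.543 and -0.552, though 7 of 16 fell in weak and 11 in strong arrays, and Fmod had -1.13 and -2.14. Immediate-early genes had medians of opposite sign, -0.113 in weak and 0.193 in strong arrays, with 0 and 5 of 26 that rose. Of 19 genes of fibro-adipogenic progenitors and fibroblasts, 8 fell in weak and 14 in strong arrays. The 6 erythroid genes, markers of blood in the tissue, had medians of 0.712 and 0.458, and 22 genes of hepatocytes and acinar cells had 0.257 and -0.024.

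**Figure D4:**
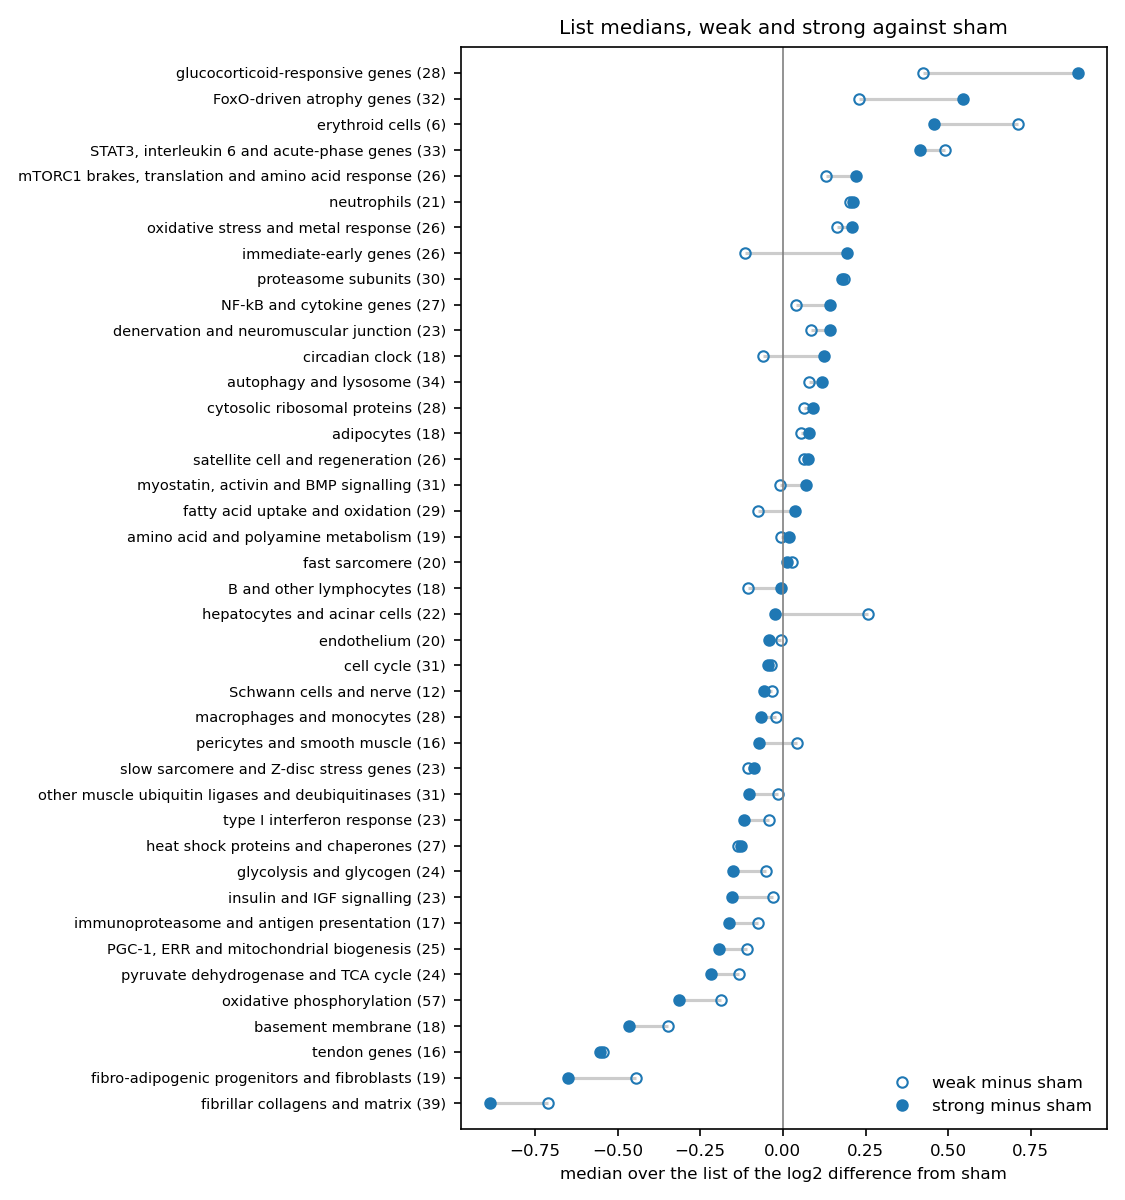
Median log2 difference from the same 12 sham arrays over the measured genes of each list (number in brackets), for weak (open) and strong (filled) arrays, from the fit with a term for each cohort. Glucocorticoid-responsive genes have 0.423 in weak and 0.891 in strong arrays, and matrix genes -0.710 and -0.885.

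The diaphragm arrays that carry the same cohort and number as the 16 arrays gave values that the grouping did not use. Whether equal numbers mark the same mouse is not stated. Deviations from the group mean correlated by over 0.1 for only 2 of 17 same-numbered arrays (-0.22 to 0.22), so that the numbers were not taken as pairs. The diaphragm groups are thus known to share only their cohorts with the strong and weak groups. Whether diaphragm values go with the tibialis anterior score cannot be told from them. With the diaphragm arrays grouped in this way, 0 of 23185 genes passed in limma (0%), with 2416 (10.4%) at an unadjusted p under 0.05. Fbxo32 lay at -0.81 to 0.35 in the arrays numbered as strong and at -1.01 to 0.22 in those numbered as weak, a difference of 0.03 (SE 0.20, adjusted p = 0.973). Trim63 lay at -0.32 to 0.73 and at -0.999 to 0.87, a difference of 0.41 (SE 0.23, adjusted p = 0.563). The ranges overlapped for both genes. Hepatocyte marker means in these diaphragm arrays reached 11.4 in the strong-numbered and 10.8 in the weak-numbered ones, and their part in these values was not tested.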

How the data were processed

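Biotin-labelled total RNA of whole muscle was read on Affymetrix arrays, per the labels. In the deposited table, each of 58 arrays has log2 values for 25206 probe sets, made by the authors through RMA (R package affy, version 1.36.1, in R 2.15.1), as the submitters' processing notes list. The values themselves showed the log2 scale. The sources used here give neither the probe set definitions nor a build. The platform annotation gave symbols to 23185 probe sets, 1 per symbol. Promoters are RefSeq's (GRCm38.p6).

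Each PDX value was taken minus the mean of its cohort's 3 sham arrays. Strong and weak arrays were compared with limma 3.58.1 (R 4.3.3, statmod 1.5.0), two-sided, with Benjamini-Hochberg adjustment over 23183 genes and no filter; sham comparisons came from a fit of all 29 arrays with a cohort term. The number of arrays limits precision, and p-values measure the spread between samples that are not stated to be separate animals. Arrays and lists were chosen with earlier results of these data known. Of 112 genes that the naming rule and the non-overlapping groups gave, the text describes 70, and Esam besides. Alternatives were cohort blocks, a continuous score, leaving out arrays or cohorts, other scaling, array weights and dropping dim genes. Tests were tried on simulated data.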

Additional observations from a re-analysis of the deposited data

Results flagged for a closer look

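Within a group of 8, the following values stood apart from the other 7 by more than Dixon's criterion allows, which chance exceeds in about 1 in 20 groups. All are log2 minus the own-cohort sham mean. Many genes were searched in both groups, so that some values are expected to stand apart by chance. The strong array cohort 3 PDX 1 did so for Cdkn1a (2.81, next 1.13), Sat1 (2.14, next 0.67), Mef2d (0.86, next 0.37), Ky (-3.92, next -1.90) and Atg101 (-0.62, next -0.30). It had the highest score and the highest Trim63. The strong array cohort 4 PDX 3, which had the lowest score of its group, did so for Col3a1 (-1.65, next -2.35) and Ppargc1a (2.03, next -0.21). Further strong arrays were cohort 1 PDX 3 for Myh1 (-0.16, next 0.06) and cohort 4 PDX 1 for Alb (4.22, next 0.61).

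Among weak arrays, cohort 1 PDX 1 stood apart for Klf15 (0.90, next 0.38) and Myh4 (0.29, next 0.13). Cohort 2 PDX 1 did so for Acvr1b (-0.10, next 0.23) and Fbxo40 (-0.36, next -0.06), and cohort 2 PDX 3 for Fmod (0.21, next -1.10).

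Between the groups, Lmod2 (0.88) and Col3a1 (-1.37) differed by limma's test of strong minus weak over 16 arrays.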

How the results depend on the processing

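No paired analysis was possible because strong and weak arrays are different arrays of the same PDX groups, and numbers are not shared between them as pairs. The count of genes past the threshold between strong and weak arrays, 2, became 0 with cohort as a fixed or random block, with the score as a continuous variable, in the fit of all 29 arrays, in cohorts 1 and 4 alone, without the arrays of high hepatocyte markers and without cohorts 1, 2 or 3. It became 16 without cohort 4 and 7 with array weights, and ran from 0 to 123 without single arrays. The fit of 29 arrays, that of cohorts 1 and 4 and that without high-hepatocyte arrays were added after seeing the data. Scaling alone (median centring, quantiles within the muscle) and dropping dim genes left it within 1.5 times. The same-numbered diaphragm count stayed at 0 in each alternative run.

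The count of weak against sham, 334, was 26, 107, 612 and 2 without cohorts 1 to 4, 531 without dim genes and 213 without the high-hepatocyte arrays; that of strong against sham, 2827, was 1176 without cohort 1 and 1201 without cohort 3. The cause of these shifts was not tested.

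Signs turned for genes that had not passed. With cohort as a fixed block, and the same in cohorts 1 and 4 alone, they were Lcn2 (-0.62), Pik3r1 (-0.062), Cox7a1 (0.013), Ppargc1a (0.29), Myh4 (-0.091), Sln (-0.13) and Fbxo21 (-0.14). With the continuous score they were Myh2 (-0.12), Myh4 (-0.044), Caml (-0.028) and Fbxo21 (-0.048). Without cohort 3 they were Ppargc1a (0.25), Myh2 (-0.15), Myh4 (-0.0404), Fbxo21 (-0.065) and Fbxo40 (0.021), without cohort 1 Mstn (-0.044), without cohort 2 Myh4 (-0.0028) and without cohort 4 Myh2 (-0.13). Array weights gave Myh2 -0.24. Myh4 had -0.016 with a random block, -0.0201 with quantiles within the muscle and -0.0286 in the fit of 29 arrays. Without single arrays Myh4 ran from -0.0095 to 0.0304 and Myh2 from -0.0828 to 0.433. Weak against sham without cohort 2 gave Lmod2 0.031 and Zfp36 0.55. In the diaphragm, Fbxo32 had -0.35 (fixed block), -0.0814 (random block), -0.24 (continuous score), -0.28 (without cohort 2), -0.10 (without cohort 3) and -0.0846 to 0.116 without single arrays, and Trim63 -0.0436 (fixed block) and -0.0752 (continuous score).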
